A study of Emberiza melanocephala with 4 samples.

Results

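CALM3 and PVALB, which encode the calcium-binding proteins calmodulin and parvalbumin, were followed through 4 transcript assemblies from Emberiza melanocephala, the black-headed bunting, a songbird that migrates. The members are the transcripts that carry either gene name in the deposited assemblies. This took 2 of the 278 genes with a symbol and 4 of the 1076 listed transcripts. In addition, 2 assembled transcripts without a gene name overlap the exons of these genes, and they are given separately throughout. The genes were chosen by their FPKM in these same libraries, so their levels are a description and no test is attached to them.

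Total RNA of wild-caught birds was sequenced by pyrosequencing from liver and hypothalamus in a long-day (LD) and a short-day (SD) state. The groups are LD liver, LD hypothalamus, SD liver and SD hypothalamus, with 1 library each, so no value has a replicate error and no difference has a replicate check. The titles give these groups. For LD hypothalamus and SD liver the recorded seasonal state is the opposite of the title, and marker genes go against some tissue labels, as described next. Each library is therefore called by its label, and a difference between labels cannot be assigned to season or to tissue.

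Aligned sequence amounted to 17.8, 13.3, 20.8 and 15.8 megabases in LD liver, LD hypothalamus, SD liver and SD hypothalamus, and 183, 126, 62 and 34 genes with a symbol were listed. Of 19 neuron markers, 4 were listed in LD liver (811 FPKM in sum), 4 in LD hypothalamus (618 FPKM), 0 in SD liver and 0 in SD hypothalamus. SNAP25, a vesicle fusion protein of neurons, led the list in both LD libraries, with 462 FPKM in LD liver and 290 FPKM in LD hypothalamus. OLFM1, a secreted glycoprotein of neurons, came next with 277 FPKM in LD liver and 201 FPKM in LD hypothalamus. Of the hepatocyte markers, APOA1 was listed by name at 20.9 FPKM in LD liver and 327 FPKM in SD hypothalamus, and LD hypothalamus listed 0 of the 25 on the list. Assembled transcripts joined by exon overlap added APOA1 in SD liver (655 FPKM) and, in LD liver, the neuropeptide-processing enzyme CPE (348 FPKM) and the matrix protein SPARC (244 FPKM). APOA1 forms the protein core of high-density lipoprotein. Albumin and transthyretin, defining products of hepatocytes, were listed in none of the 4 libraries. Of 14 glia markers, 1 was listed in LD liver (GPM6B, 87.1 FPKM) and 2 in LD hypothalamus (GPM6B and SPARC, 133 FPKM in sum), against 0 in both SD libraries. No red blood cell or pituitary marker was listed, out of 10 on each list.

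Calmodulin is a small, highly conserved sensor that carries EF-hands, helix-loop-helix motifs that each hold a calcium ion. When loaded with calcium it binds and switches other proteins, among them kinases, the phosphatase calcineurin, ion channels and calcium pumps. It is made by every cell and is particularly abundant in neurons. In vertebrates several calmodulin genes encode nearly or fully the same protein and differ mainly outside their coding parts, so that reads from the coding exons can be shared between them. Parvalbumin, from the same EF-hand superfamily, acts as a buffer that takes up calcium without switching a target. It is known from fast-contracting skeletal muscle and from fast-spiking inhibitory neurons.

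CALM3 was among the most abundant named transcripts of both LD libraries and had a much lower level in SD hypothalamus. The transcript that carries the name had 136 FPKM in LD liver, 160 FPKM in LD hypothalamus and 9.88 FPKM in SD hypothalamus, and CALM3 was not listed in SD liver. FPKM is coverage per base of transcript relative to all aligned sequence. In tissue RNA, fewer cells of a type and less RNA per cell cannot be told apart. In LD liver an assembled transcript over the same exons added 210.5 FPKM, so that the CALM3 locus summed to 346 FPKM there. With or without that addition both LD libraries were above SD hypothalamus.

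PVALB by name was listed in LD liver alone, at 15.9 FPKM. In LD hypothalamus the gene name does not appear. An assembled transcript with 205 FPKM lies there on exons of PVALB and on the same strand. Neither a named nor an overlapping assembled transcript of PVALB was listed in SD liver or SD hypothalamus. On transcripts that carry the name, PVALB is thus in 1 library of 4, and on the joined locus it is in the 2 libraries labelled LD.

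An unlisted gene is not a gene at 0. Assembled transcripts appeared in these files from a mean coverage of 2.50 in LD liver, LD hypothalamus and SD liver and 2.51 in SD hypothalamus, which corresponds to 141, 189, 120 and 159 FPKM. Transcripts of the reference annotation were listed at lower coverage, with medians of 0.476, 0.352, 0.330 and 0.382 in the same order. No ratio was therefore formed for CALM3 against SD liver, or for PVALB against either SD library.

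**Figure D1:**
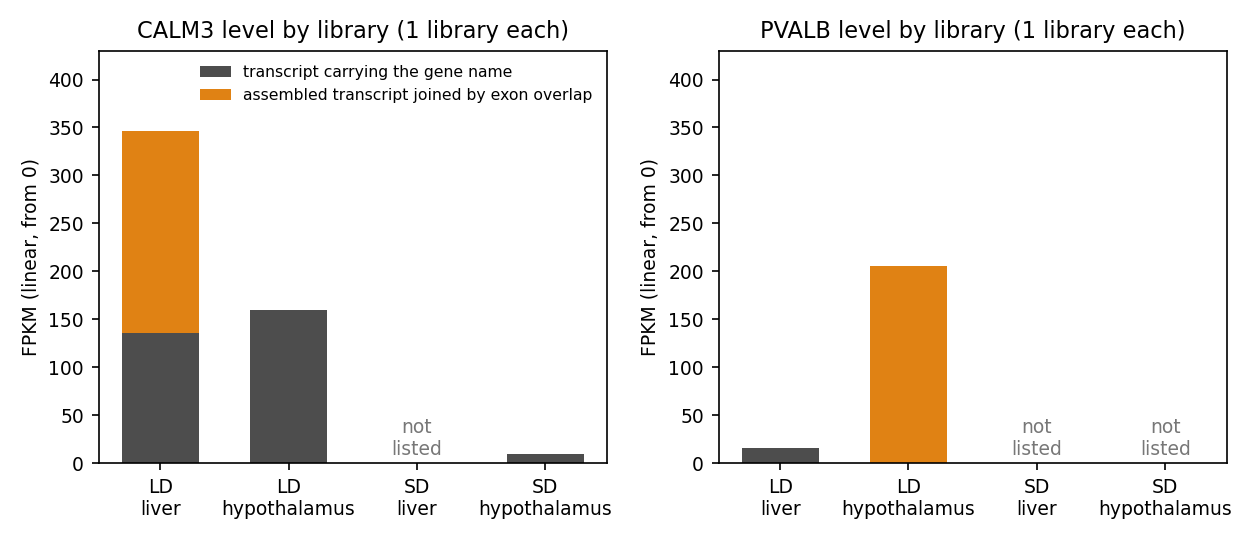
FPKM of CALM3 (left) and PVALB (right) in each of the 4 libraries, on a linear axis from 0; grey is the transcript that carries the gene name and orange the assembled transcript joined by exon overlap. CALM3 reached 346 FPKM in LD liver when both transcripts were summed, against 160 FPKM in LD hypothalamus and 9.88 FPKM in SD hypothalamus, and the 205 FPKM at PVALB in LD hypothalamus come wholly from an assembled transcript.

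The named CALM3 transcript was the same in the 3 libraries that list it. It is ENSFALT00000012841 of gene ENSFALG00000012251, on the minus strand of scaffold JH603202.1 (4501811 to 4509260, collared flycatcher build FicAlb_1.4), with 4 exons and 3791 exonic bases. Because the length is fixed, FPKM and aligned bases (coverage times length) per aligned megabase give the same ratios for this transcript. Aligned bases alone also depend on how much sequence the library holds, and they order the LD libraries the other way. The transcript held 9144 aligned bases in LD liver, 8052 in LD hypothalamus and 592 in SD hypothalamus. Per aligned megabase these are 514, 607 and 37.5 bases. The SD hypothalamus value thus rests on a small amount of sequence, and the number of reads behind it is not known.

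Within its library CALM3 changed place as well as level. By FPKM it ranked 11 of 183 named genes in LD liver, 7 of 126 in LD hypothalamus and 21 of 34 in SD hypothalamus. By aligned bases it ranked 6, 4 and 13 in the same libraries. The median named gene had 26.1 FPKM in LD liver, 28.3 FPKM in LD hypothalamus and 12.9 FPKM in SD hypothalamus, so by FPKM CALM3 lay above the median of its library in both LD libraries and below it in SD hypothalamus. By aligned bases it was above the median in SD hypothalamus too, with 592 bases against a median of 456.5. With the assembled transcript added, its place in LD liver was 5 of 186 by FPKM and 2 of 186 by aligned bases.

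**Figure D2:**
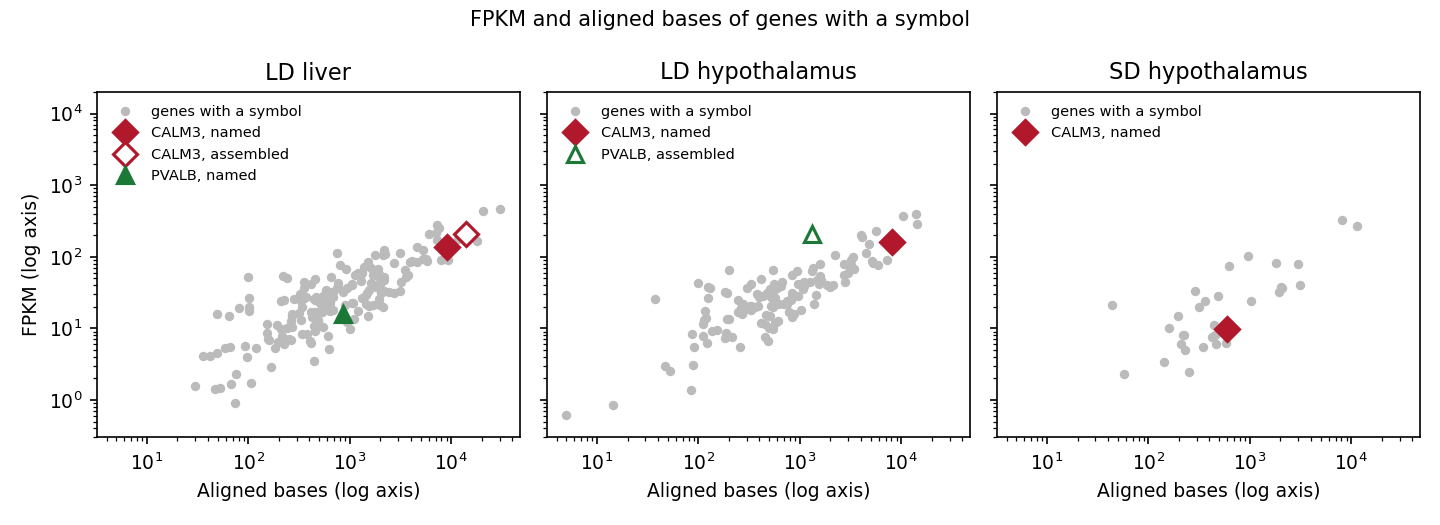
FPKM against aligned bases, both on log axes, for every gene with a symbol (grey) in the 3 libraries that list a member; filled symbols are transcripts that carry the gene name and open symbols the assembled ones. CALM3 lies near the upper right in both LD libraries and at 592 aligned bases in SD hypothalamus, and the assembled transcript at PVALB in LD hypothalamus reaches 205 FPKM on 1330 aligned bases.

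LD hypothalamus against SD hypothalamus gave CALM3 a log2 ratio of FPKM plus 1 of 3.89, with 160 FPKM in LD hypothalamus and 9.88 FPKM in SD hypothalamus. This was the highest ratio of the 22 reference genes listed in both libraries, whose median was -0.003 on the log2 scale. Of these genes 27.3% were at least 2-fold higher in LD hypothalamus and 4.55% at least 2-fold lower. Among the 32 joined loci of this comparison the shares were 21.9% and 12.5%, and CALM3 again had the highest ratio. CALM3 was chosen with this ratio in view, so its place among the 22 is not independent of the choice.

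The exons of CALM3 did not share this difference equally. The files number exons by position, so on the minus strand exon 1 is the one at the 3′ end. It spans 3404 bases, 89.8% of the transcript. Coverage of exon 1, put on the FPKM scale, was 167 in LD hypothalamus and 5.02 in SD hypothalamus, a 33.3-fold difference. Exon 2 (136 bases) had 144 in LD hypothalamus and 63.3 in SD hypothalamus, exon 3 (107 bases) had 100.5 and 63.3, and exon 4 (144 bases) had 51.3 and 34.7. These 3 exons differed by 2.27, 1.59 and 1.48-fold. Over the 387 bases outside exon 1 the log2 ratio was 0.87, within 2-fold of even, with 97.4 on the FPKM scale in LD hypothalamus and 52.7 in SD hypothalamus.

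The aligned bases show the same contrast. Exon 1 held 7552 of the CALM3 bases in LD hypothalamus (93.8%) and 270 in SD hypothalamus (45.6%), while the other exons held 500 and 322 bases. In SD hypothalamus exons 2 and 3 had a mean coverage of exactly 1, the depth of a single aligned read. The ratio of 3.89 is therefore carried by the 3′ exon, and the rest of the transcript differed by less than 2-fold on 500 and 322 bases.

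LD liver resembled LD hypothalamus in this respect. There the named transcript had 138 on the FPKM scale in exon 1, 191 in exon 2, 113 in exon 3 and 54.6 in exon 4. Coverage of exon 1 was 1.16 times that of the other exons together in LD liver and 1.72 times in LD hypothalamus, against 0.0953 times in SD hypothalamus. Across all reference transcripts with more than 1 exon, the median coverage of the 3′ exon relative to the whole transcript was 0.780 in LD liver (130 transcripts), 0.721 in LD hypothalamus (90) and 0.583 in SD hypothalamus (23). CALM3 stood at 1.01, 1.04 and 0.508 on this measure. It was above the median in both LD libraries, and 7 of the 23 transcripts of SD hypothalamus were lower than it there. The measure also depends on the share of length in the 3′ exon, 89.8% in CALM3 against a median of 64.7% in SD hypothalamus. The count therefore does not rank how uneven these transcripts are.

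**Figure D3:**
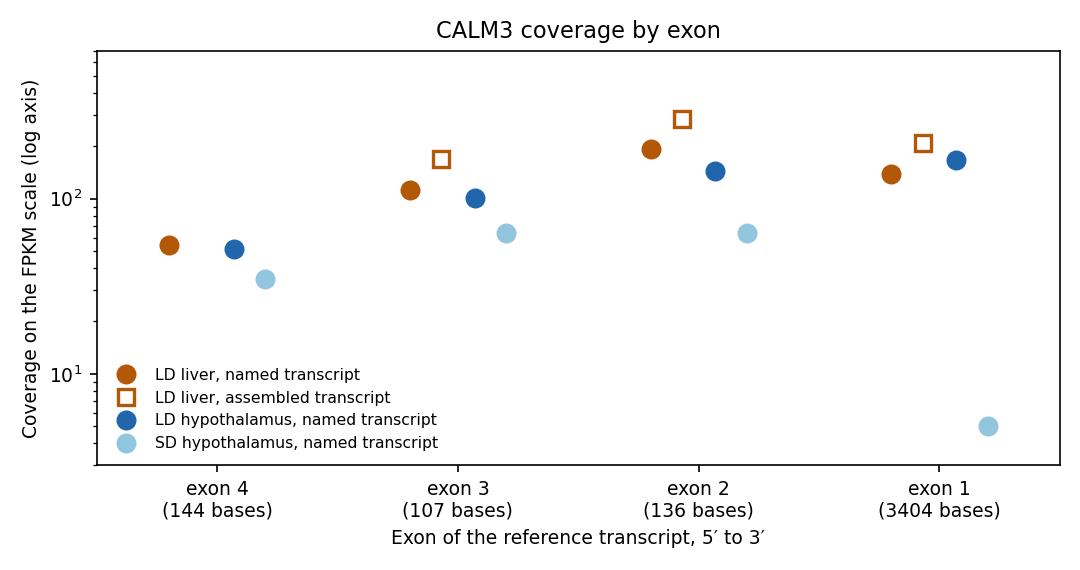
Mean coverage of each CALM3 exon on the FPKM scale (log axis), with exons in the order of the transcript from 5′ to 3′; filled circles are the named transcript and open squares the assembled transcript of LD liver in the exons it shares. Exon 1 of the named transcript stood at 138 in LD liver and 167 in LD hypothalamus against 5.02 in SD hypothalamus. Both transcripts of LD liver summed to 344 in exon 1. Exons 2 to 4 of LD hypothalamus and SD hypothalamus were 1.48 to 2.27-fold apart.

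The same split could be made for 6 named genes with more than 1 exon and the same reference transcript in both hypothalamus libraries. The log2 ratio of the 3′ exon minus that of the remaining exons was 3.93 for CALM3, the highest of the 6, around a median of 1.52. It was 2.03 for the dynein light chain DYNLL2, 1.98 for the 14-3-3 adaptor YWHAQ and 1.06 for the actin-depolymerising protein DSTN. The ADP/ATP carrier SLC25A6 (-0.48) and the translation factor EIF4A2 (-0.16) had the opposite sign. Unequal coverage towards the 3′ end was therefore not seen in CALM3 alone, and what brings it about was not tested.

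LD liver against LD hypothalamus depends on which CALM3 transcripts are counted. On the transcript that carries the name, CALM3 had 136 FPKM in LD liver and 160 FPKM in LD hypothalamus, a log2 ratio of -0.24. On the joined locus it had 346 FPKM in LD liver and 160 FPKM in LD hypothalamus, a log2 ratio of 1.11. The sign turns and the 2-fold line is crossed. Of the LD liver sum, 210.5 FPKM come from an assembled transcript. Such transcripts appeared in LD hypothalamus only from 189 FPKM, above the 160 FPKM of CALM3 there. A second transcript of this kind could thus be listed in LD liver only. On the exons that both transcripts share, the LD liver coverage was divided between them, so the ratio by name counts only a part of it. Summed over both transcripts, exon 1 had 344 on the FPKM scale in LD liver, against 167 in LD hypothalamus. Among the 98 named reference genes listed in both libraries 16.3% were at least 2-fold higher in LD liver and 14.3% at least 2-fold lower, and among the 142 joined loci 14.1% were higher and 12.7% lower.

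The assembled CALM3 transcript of LD liver shares 3 exons with the reference on its 3′ side and departs from it on the 5′ side. It runs from 4501859 to 4511250 on the minus strand, has 6 exons and 3775 bases, and held 14136 aligned bases at a mean coverage of 3.74. Exons 2 and 3 have the bounds of the reference, and exon 1 is shorter by a stretch at its 3′ end (3356 bases). In place of the 144 bases of reference exon 4 it keeps only 13 bases and continues upstream with an exon of 131 bases (4510141 to 4510271) and one of 32 bases (4511219 to 4511250). These upstream exons had mean coverages of 3.69 and 3.42, close to that of the whole assembled transcript. The annotation of coding parts was not used here, so whether the change of the 5′ exons lies in coding sequence is not given.

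In the exons that both CALM3 transcripts of LD liver share, coverage was divided between them in a near-constant proportion. The named transcript had 0.667 times the coverage of the assembled one in exon 2 and in exon 3, and 0.657 times in exon 1. The 136 FPKM of the named transcript are thus 1 part of a shared coverage that the assembler divided between both. Summed over both transcripts, coverage on the FPKM scale was 344 in LD liver and 167 in LD hypothalamus in exon 1, 478 and 144 in exon 2, and 282 and 100.5 in exon 3. These are 2.06, 3.33 and 2.81-fold higher in LD liver. No assembled transcript accompanied CALM3 in LD hypothalamus or SD hypothalamus. The mean coverage of CALM3 was 2.12 and 0.156 there, below the 2.50 and 2.51 from which assembled transcripts appeared. Their absence therefore says nothing about these libraries.

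**Figure D4:**
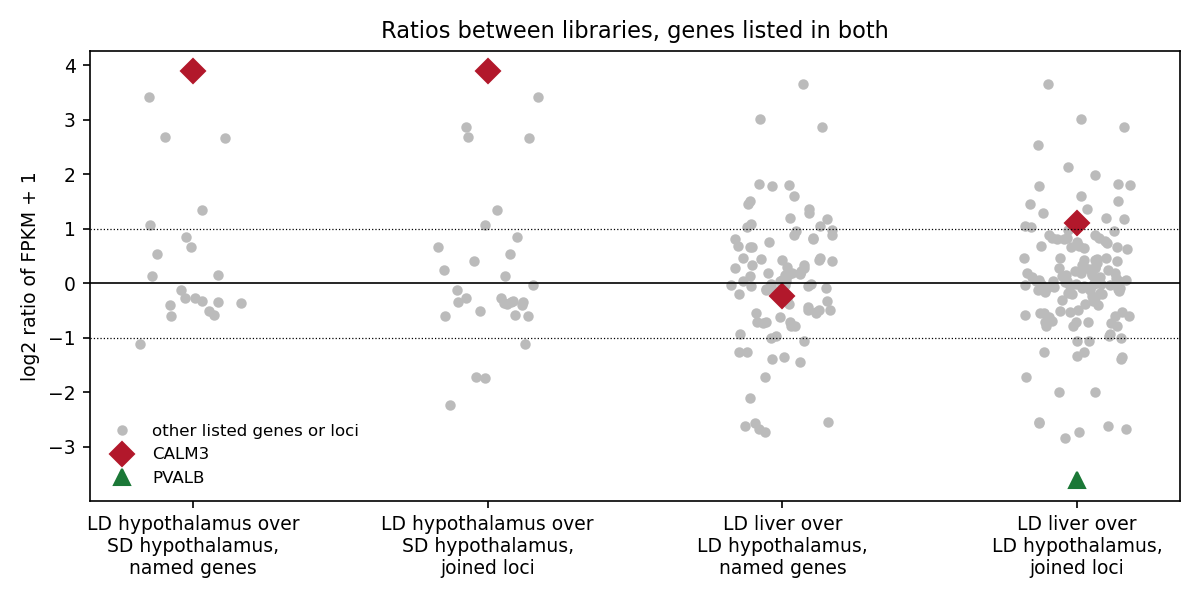
Log2 ratios of FPKM plus 1 for genes or loci listed in both libraries, with dotted lines at 2-fold; each grey point is 1 gene or locus, the diamond is CALM3 and the triangle PVALB. CALM3 stood at 3.89 in LD hypothalamus over SD hypothalamus under both ways of summing, and at -0.24 by name or 1.11 as a joined locus in LD liver over LD hypothalamus, where the PVALB locus was lowest at -3.61. The PVALB value of LD hypothalamus is an assembled transcript, and these appeared there only from 189 FPKM. The joined CALM3 value of LD liver includes an assembled transcript, which could not be listed at the CALM3 level of LD hypothalamus. The value by name in LD liver holds only a part of its coverage in the shared exons.

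The named PVALB transcript of LD liver is ENSFALT00000013628 of gene ENSFALG00000012997, on the plus strand of scaffold JH603173.1 (19998762 to 20009481, FicAlb_1.4). It has 4 exons and 3048 exonic bases, of which exon 4 at the 3′ end makes up 2744 bases, or 90.0%. It held 860.5 aligned bases, 0.282 per base of transcript. By FPKM it ranked 129 of 183 named genes in LD liver and by aligned bases 82 of 183, so it lay below the median gene on the first scale and above the median of 649.5 bases on the other. FPKM divides by the transcript length, and aligned bases do not.

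Most of the PVALB sequence in LD liver came from the short exons. Exons 1, 2 and 3 (61, 133 and 110 bases) had 135, 101 and 104 on the FPKM scale, whereas exon 4 had 5.56. The 3′ exon held 31.6% of the aligned bases on 90.0% of the length. Relative to the whole transcript, its coverage was 0.350, below the 0.780 median of multi-exon transcripts in LD liver, and 27 of the 130 were lower. In this PVALB in LD liver was unlike CALM3 in the same library, whose 3′ exon was at 1.01. The measure depends on the share of length in the 3′ exon, 90.0% in PVALB against a median of 64.7% in LD liver.

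The assembled transcript of LD hypothalamus covers 488 bases in 3 exons, from 20000827 to 20007028 on the plus strand. Its middle exon has the bounds of PVALB exon 3 (110 bases), and its outer exons lie within exon 2 (87 bases) and at the start of exon 4 (291 bases). It held 1330 aligned bases at a mean coverage of 2.73, just over the 2.50 at which assembled transcripts were listed. Coverage was 3 in its first and middle exons and 2.54 in the last. By FPKM the PVALB locus ranked 10 of 131 in LD hypothalamus and by aligned bases 39 of 131. Assembled transcripts appeared there only from 189 FPKM, against a median of 30.3 FPKM, so a high rank by FPKM follows from the listing.

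Put side by side in FPKM, the PVALB locus had 15.9 in LD liver and 205 in LD hypothalamus. The log2 ratio of FPKM plus 1 was -3.61, the lowest of the 142 joined loci, of which 12.7% were at least 2-fold lower in LD liver. The LD hypothalamus value is an assembled transcript, and these appeared there only from 189 FPKM. The LD liver value is a reference transcript, which could be listed at lower levels. A low ratio was thus favoured by the listing, and its place among the 142 is no evidence of a difference. The ratio sets a transcript of 3048 bases in LD liver against one of 488 bases in LD hypothalamus. In aligned bases per megabase, a scale without division by length, the locus had 48.4 in LD liver and 100.2 in LD hypothalamus, a log2 ratio of -1.04. On exon 3, the exon with the same bounds in both, coverage on the FPKM scale was 104 in LD liver and 226 in LD hypothalamus, a log2 ratio of -1.11.

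A limit for the full set of shared bases can be given. If every aligned base of exons 2, 3 and 4 in LD liver (714 in all) fell inside the 488 shared bases, LD liver would reach 82.3 on the FPKM scale, against 205 in LD hypothalamus. Over the shared bases LD liver was thus at least 2.50-fold below LD hypothalamus, where the whole transcripts are 12.9-fold apart. PVALB stayed lower in LD liver on the 3 measures, and about 2-fold of the difference remained on the matched exon. The shared bases are the extent of the assembled transcript of LD hypothalamus, so they were chosen where that library has high coverage. This favours LD hypothalamus, on exon 3 as well, and was not corrected for.

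**Figure D5:**
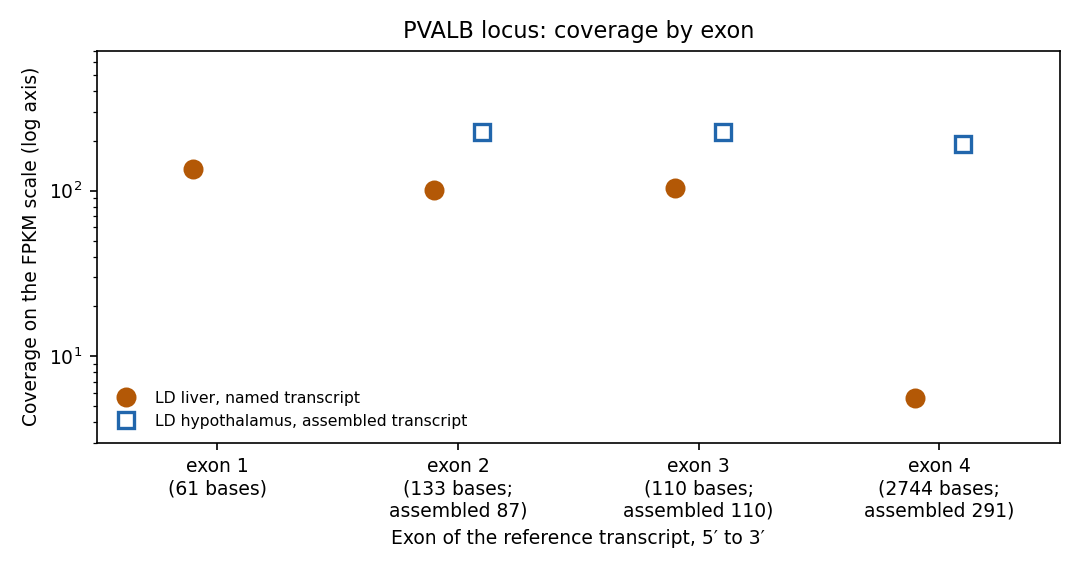
Mean coverage of each exon at the PVALB locus on the FPKM scale (log axis), from 5′ to 3′; filled circles are the named transcript of LD liver and open squares the assembled transcript of LD hypothalamus, whose exons are shorter where a second length is given. In exon 3, the same in both, LD liver stood at 104 and LD hypothalamus at 226, and in exon 4 the 5.56 of LD liver is an average over 2744 bases while the 191 of LD hypothalamus covers 291.

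The order of the members within a library also changed with the scale. In LD liver CALM3 by name had 8.54 times the FPKM of PVALB, and as a joined locus 21.8 times. In LD hypothalamus the CALM3 locus had 0.779 times the FPKM of the PVALB locus, yet 6.05 times its aligned bases. The CALM3 value of LD hypothalamus is an average over 3791 bases and the PVALB value over 488. As an assembled transcript, the PVALB value could be listed only from 189 FPKM, above the 160 FPKM of CALM3. The order by FPKM in LD hypothalamus was thus fixed by the listing.

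Few other genes of the chosen calcium lists were listed, in files that list 278 genes with a symbol in all. The lists do not hold every gene of calcium signalling. Of 154 genes on 6 lists of calmodulins, calcium buffers, neuronal calcium sensors, calmodulin-dependent kinases and phosphatase, other calmodulin-binding proteins, and calcium channels, pumps and stores, 3 were listed in any library. They are CALM3, PVALB and GAP43, a protein of growing axons that binds calmodulin when calcium is low. GAP43 had 26.1 FPKM in LD liver (591 aligned bases) and 38.8 FPKM in LD hypothalamus (656 aligned bases), and it was not listed in SD liver or SD hypothalamus. CALM3 was 1 of 7 calmodulin genes on its list and PVALB 1 of 15 buffers. Of the 24 neuronal calcium sensors, the 30 kinases and phosphatase genes, and the 46 channel, pump and store genes 0 were listed. The share of all annotated genes that were listed is not known here, so nothing particular to calcium genes is read from these counts. Genes were matched by symbol and the depth is low, so an unlisted gene may still be expressed.

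Markers of the cells known for parvalbumin were counted in the same way, with the same limit. Of 28 skeletal muscle markers 0 were listed in any library, ACTA1, CKM and the fast troponins among the unlisted. Of 15 genes on a list of inhibitory neurons, SLC32A1 was listed in LD liver at 26.8 FPKM (1334 aligned bases). LD hypothalamus, SD liver and SD hypothalamus listed 0. The list was drawn up for fast-spiking interneurons but also holds genes not particular to them, among them GAD1, GAD2, SST and CORT. SLC32A1 loads GABA and glycine into vesicles, so it is not particular to fast-spiking neurons. The GABA-synthesising enzymes GAD1 and GAD2 and the fast potassium channels KCNC1 and KCNC2 were unlisted throughout. SNAP25 and OLFM1 were listed in the 2 LD libraries, which are also those that list a transcript at PVALB and the higher CALM3 levels. Between these libraries SNAP25 and OLFM1 were higher in LD liver by name. GAP43, also on the list of neuron markers, was lower there, with 26.1 FPKM against 38.8 FPKM in LD hypothalamus. CPE was listed by name in LD hypothalamus alone (87.3 FPKM) but was higher in LD liver as a joined locus (348 FPKM, from an assembled transcript). STMN2, also on that list, was listed in LD liver alone, at 46.9 FPKM. By name the log2 ratios were 0.67 for SNAP25, 0.45 for OLFM1 and -0.56 for GAP43, all within 2-fold. Of the neuron markers listed in both LD libraries, GAP43 alone was thus lower in LD liver. The PVALB locus and CALM3 by name were lower in LD liver, and for PVALB the listing favoured a low ratio. For CALM3 by name, only a part of the LD liver coverage was counted. The joined CALM3 locus was higher in LD liver, with 346 FPKM against 160 FPKM in LD hypothalamus. Whether the cells marked by SNAP25 and OLFM1 have a part in the levels of CALM3 and PVALB was not tested.

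The genes most like CALM3 were sought among those listed in exactly the same libraries, by the Euclidean distance between log2 profiles of FPKM plus 1, each centred on its own mean. By name there were 4 such genes over 3 libraries. YWHAQ was nearest at a distance of 0.378, with 89.8 FPKM in LD liver, 77.1 FPKM in LD hypothalamus and 6.32 FPKM in SD hypothalamus. DSTN (1.39), DYNLL2 (1.93) and ZFP36L1, a protein that binds and destabilises mRNA (3.09), followed. YWHAQ, DSTN and DYNLL2 were low in SD hypothalamus like CALM3, whereas ZFP36L1 had 27.3, 22.1 and 24.2 FPKM in LD liver, LD hypothalamus and SD hypothalamus.

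For PVALB by name the measure is empty, since 87 other genes were also listed in LD liver only and a centred profile of 1 library has no shape. On joined loci, 62 others were listed in exactly the 2 LD libraries. The nearest to PVALB were the ubiquitin-conjugating enzyme UBE2K (distance 0.553; 30.1 FPKM in LD liver and 220 FPKM in LD hypothalamus), HPS6, a factor of lysosome-related organelles (0.705), and the ubiquitin ligase TRIM13 (0.756). With 2 libraries the distance compares a single ratio. UBE2K was not listed by name in LD hypothalamus, so its value there comes from assembled sequence, as at PVALB.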

How the data were processed

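The deposited files hold 1 transcript assembly per library, made by the authors with StringTie 1.3.3b on trimmed alignments, with the collared flycatcher (FicAlb_1.4, Ensembl 89) as the guide annotation, per the file headers. Neither aligner nor trimming tool is named in the labels or headers. Bunting reads that differ from the flycatcher genome may have failed to align. FPKM, TPM and mean coverage per base were taken as deposited, per the file headers. The remaining numeric column, a score of 1000 on every line in the deposited files, carries no measurement.

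Exon lengths were summed per transcript, and aligned bases are coverage times length. FPKM divided by coverage was 1 constant per library, which gives the aligned megabases. The command lines carry run numbers 2, 1, 4 and 3 for LD liver, LD hypothalamus, SD liver and SD hypothalamus, which number no replicates. FPKM was summed over transcripts that carry a reference gene. As an addition made after seeing the data, transcripts whose exons overlapped by 1 base or more on the same strand, or that shared a reference gene, were joined into 750 loci. Transcripts without a strand were joined to the stranded locus they overlapped most, or otherwise to each other. Log2 ratios of FPKM plus a pseudocount of 1 were formed for genes listed in both libraries of a comparison, so that changes of low genes come out too small, and 2-fold was called higher or lower. With 1 library per group there was no test. The ratio code was checked on a copy of LD liver with known folds put in, without a pseudocount. Python 3.11.15 and pandas 2.3.3 were used.

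The members and gene lists were chosen with earlier results of these data known. Named were both members, every listed gene of the calcium lists and the 2 highest listed markers per list. The other listed neuron markers and up to 5 genes most alike were named too. Genes named for the split by exon are those with the same transcript in both libraries. Whether the libraries keep strand is not stated. Calmodulin genes can share reads, so CALM3 values are uncertain in this respect. Sequences were not used here, and some marker results are not reported here.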

Additional observations from a re-analysis of the deposited data

How the results depend on the processing

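No paired analysis was possible because each group has 1 library and the labels carry no replicate numbers. In LD hypothalamus over SD hypothalamus the CALM3 log2 ratio lay between 3.88 and 4.17 under 7 alternatives. Among these, joining loci, taking the highest transcript and requiring at least 150 aligned bases could not change it. CALM3 has 1 transcript in each of these libraries, with more than 150 aligned bases. As its length is fixed, dropping the division by length acts on CALM3 by name only through the pseudocount. The ratio was 3.10 with a pseudocount of 10, which lowers ratios of low values by construction, and 0.87 without the 3′ exon. In LD liver over LD hypothalamus it lay between -0.27 and 0.28 under 8 alternatives, with the highest value, of opposite sign, on the exons outside the 3′ exon, and it was 1.11 on joined loci. The PVALB locus lay between -3.69 and -3.06 under 6 alternatives, at -1.04 without division by length and at -1.11 on the exon with the same bounds. Taking the highest transcript and requiring at least 150 aligned bases could not change the PVALB ratio or the CALM3 ratio between the LD libraries. Joining loci, leaving out the 3′ exon and using the shared exon change which sequence is compared, while dropping the division by length changes the scale only. Genes at least 2-fold apart numbered 7 between LD hypothalamus and SD hypothalamus (11 on joined loci), 13 between LD liver and SD liver (20 on joined loci and 8 with at least 150 aligned bases), 5 between SD liver and SD hypothalamus (14 on joined loci, 2 with at least 150 aligned bases and 1 with a pseudocount of 10), and 30 between LD liver and LD hypothalamus (17 with at least 150 aligned bases, 12 higher and 5 lower in place of 16 and 14, and 19 with a pseudocount of 10). Deposited TPM moved the median log2 ratio of named genes to 0.26 from -0.003 in the hypothalamus comparison and to 0.42 from 0.08 in the liver comparison, and it changed the split from 6 higher and 1 lower to 7 and 0 and from 8 and 5 to 13 and 4 there. Median scaling changed it from 1 and 4 to 3 and 4 between SD liver and SD hypothalamus. The alternatives that join loci, split exons or treat the PVALB locus were added after seeing the data. In SD hypothalamus CALM3 rests on 592 aligned bases.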

Other observations

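BASP1 and CNN3, known to bind calmodulin and on none of the lists, were picked after their values were seen. BASP1, a membrane protein of growth cones, had 11.7 FPKM in LD liver (151 aligned bases) and 11.4 FPKM in LD hypothalamus (110 aligned bases). CNN3, an actin-binding calponin, had 19.6 FPKM in LD hypothalamus (543 aligned bases). Both were unlisted in SD liver and SD hypothalamus.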
